A study of Mus musculus with 12 samples.

Results

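The progenitor transcription factor heptad is a set of 7 genes, Gata2, Tal1, Lmo2, Lyl1, Runx1, Fli1 and Erg, out of 21887 protein-coding genes placed on the mouse genome. They were taken by name and not by a cut on a measured value, but earlier results of these data were known when they were chosen. Each was examined from 10 kb below to 10 kb above its span for peaks of H3K27me3 and H3K4me3. The peaks came from 8 lists, 1 per mark and mouse. Bone marrow was sorted for lineage-negative, cKit-positive cells, a fraction rich in stem and progenitor cells, from C57BL/6 mice. The knockout (KO) mice, KO_399 and KO_401, were Mx1Cre+ with Ints11 flox alleles, and WT_407 and WT_409 were wild-type littermates. The marrow was sorted 4 days after poly(I:C), a mimic of viral RNA that switches on the Mx1 promoter of the Cre transgene by way of interferon. That promoter is not restricted to blood cells. Ints11 is the endonuclease of the Integrator complex. Whether the WT mice carried Cre or a flox allele, and the age of the mice, are not given in the sources used here. The numbers in the labels were read as single mice.

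The heptad proteins bind DNA together at many enhancers of blood stem and progenitor cells. Gata2 is a zinc-finger factor, Tal1 and Lyl1 are related basic helix-loop-helix factors that recognise E-boxes, and Lmo2 is a bridging protein that does not bind DNA itself. Runx1 is a runt-domain factor, and Fli1 and Erg are closely related ETS factors. Several of them also act in endothelium, and they bind regulatory elements of one another. H3K4me3 marks promoters that are active or poised, H3K27me3 is laid down by Polycomb repressive complex 2, and promoters that carry both are called bivalent.

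RefSeq promoters (GRCm38.p6, 250 bases before to 50 after a start) were at hand for 5 of the 7 genes with 10 annotated starts in all, and Lmo2 and Fli1 were not matched. The following 7 of them are shown because the marks differ between them: both starts of Gata2 and the first of Tal1 lay under both marks, the first start of Erg under H3K27me3 alone, and the third start of Erg and both of Runx1 under H3K4me3 alone. Capitals mark matches, on either strand, to the letters AGATAA for a GATA motif, CANNTG for an E-box, CCGGAA for an ETS motif and TGTGGT for a RUNX motif.
Gata2 start 1, chr6:88193641-88193940, plus strand: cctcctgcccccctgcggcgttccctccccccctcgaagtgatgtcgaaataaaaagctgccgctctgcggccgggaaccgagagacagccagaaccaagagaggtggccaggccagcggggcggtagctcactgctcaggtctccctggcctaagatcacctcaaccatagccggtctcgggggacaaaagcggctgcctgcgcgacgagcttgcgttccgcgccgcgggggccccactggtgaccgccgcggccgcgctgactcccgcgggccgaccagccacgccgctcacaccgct
Gata2 start 2, chr6:88198414-88198713, plus strand: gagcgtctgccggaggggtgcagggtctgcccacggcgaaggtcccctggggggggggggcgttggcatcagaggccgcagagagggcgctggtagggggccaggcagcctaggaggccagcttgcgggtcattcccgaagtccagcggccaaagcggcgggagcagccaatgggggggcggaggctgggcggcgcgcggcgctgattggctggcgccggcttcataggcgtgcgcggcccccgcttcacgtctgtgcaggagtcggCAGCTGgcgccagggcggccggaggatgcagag
Tal1 start 1, chr4:115056176-115056475, plus strand: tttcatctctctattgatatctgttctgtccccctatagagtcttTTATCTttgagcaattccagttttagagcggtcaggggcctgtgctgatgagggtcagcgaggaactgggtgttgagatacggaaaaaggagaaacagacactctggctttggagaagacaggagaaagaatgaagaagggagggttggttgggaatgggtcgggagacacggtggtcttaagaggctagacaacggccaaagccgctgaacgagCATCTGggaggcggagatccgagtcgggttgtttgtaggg
Erg start 1, chr16:95586544-95586843, minus strand: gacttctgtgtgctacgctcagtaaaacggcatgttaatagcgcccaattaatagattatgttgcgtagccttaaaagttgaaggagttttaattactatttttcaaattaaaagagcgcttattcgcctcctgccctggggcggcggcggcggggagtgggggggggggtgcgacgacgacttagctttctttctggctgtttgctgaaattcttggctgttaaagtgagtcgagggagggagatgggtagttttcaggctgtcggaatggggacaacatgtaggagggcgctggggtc
Erg start 3, chr16:95459299-95459598, minus strand: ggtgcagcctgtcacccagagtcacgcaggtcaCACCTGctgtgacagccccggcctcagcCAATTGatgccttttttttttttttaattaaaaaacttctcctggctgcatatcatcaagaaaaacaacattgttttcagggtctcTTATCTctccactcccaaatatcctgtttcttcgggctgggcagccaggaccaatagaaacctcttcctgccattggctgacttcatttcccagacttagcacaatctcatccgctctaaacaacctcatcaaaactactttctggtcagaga
Runx1 start 1, chr16:92826025-92826324, minus strand: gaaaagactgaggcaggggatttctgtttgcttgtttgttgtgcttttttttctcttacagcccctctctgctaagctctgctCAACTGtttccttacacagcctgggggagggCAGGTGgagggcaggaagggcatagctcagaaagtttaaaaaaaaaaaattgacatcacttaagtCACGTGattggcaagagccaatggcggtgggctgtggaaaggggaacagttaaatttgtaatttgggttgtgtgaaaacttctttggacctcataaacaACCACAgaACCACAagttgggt
Runx1 start 2, chr16:92697280-92697579, minus strand: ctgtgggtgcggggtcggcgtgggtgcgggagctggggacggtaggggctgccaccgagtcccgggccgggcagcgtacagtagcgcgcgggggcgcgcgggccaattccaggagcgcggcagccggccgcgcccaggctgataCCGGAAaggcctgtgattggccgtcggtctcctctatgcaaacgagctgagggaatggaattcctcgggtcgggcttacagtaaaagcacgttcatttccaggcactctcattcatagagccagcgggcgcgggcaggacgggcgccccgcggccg

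The CpG counts sorted by mark only in part. A 300-base promoter of the RefSeq table held a median of 7 CpG dinucleotides over 32851 promoters. The Gata2 promoters had 32 and 29, and the Tal1 promoters, both under both marks, had 11 and 22. The first Erg promoter, with H3K27me3, had 16, the second, with neither mark, had 2, and the third, with H3K4me3, had 4. The 2 Runx1 promoters carried H3K4me3 in the same way with 2 CpG at the first start and 35 at the second. The Lyl1 promoter, with H3K4me3 alone, had 7. Each promoter under H3K27me3 was thus above the median, and of the others only the second Runx1 promoter was. Of all promoters, 72.3% held an E-box of these letters, 16.8% the RUNX letters, 14.9% the ETS letters and 11.2% the GATA letters. Both RUNX matches among the heptad promoters lay in the first Runx1 promoter. GATA letters occurred once in the first Tal1 and once in the third Erg promoter, and ETS letters once in the second Runx1 and 2 times in the Lyl1 promoter. A match of letters is a description and not a measured site.

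Over all libraries, the H3K27me3 lists held 6542 to 11930 peaks and the H3K4me3 lists 25090 to 27676. H3K27me3 peaks numbered 11930 (WT_407), 9838 (WT_409), 6542 (KO_399) and 7653 (KO_401) and covered 34.5, 31.5, 15.2 and 23.1 Mb in that order. Both KO lists of this mark were thus shorter over the whole genome. H3K4me3 peaks covered 37.0, 38.6, 44.5 and 36.7 Mb in the same order, the most in KO_399. Total reads are not in the peak lists, but the genome-wide background recovered from the deposited values was 3.09, 3.15, 3.30 and 3.67 reads per position for H3K27me3 in WT_407, WT_409, KO_399 and KO_401, and 2.23, 1.94, 2.65 and 1.93 for H3K4me3. All deposited peaks exceeded a fold of 5 over background, so a missing peak may be a weaker one. As a check of the cell type, H3K4me3 lay within 2 kb of an end of Kit, Cd34, Flt3 and Ly6a in every mouse. Slamf1 had it in both KO mice alone. Among markers of other cells, WT_409 had H3K4me3 at 5 of 5 B lymphoid and 4 of 4 erythroid markers, against 2 to 4 and 2 in the other mice, and KO_399 had it at 4 of 4 endothelial markers, against 1 to 3. Granulocyte and monocyte markers had it at 5 of 5 in every mouse. T and NK markers had it at Lck alone, in both KO mice, and Cd3e, Cd3g and Ncr1 had none. Stromal markers had it at 4 of 4 in KO_399 and 2 to 3 of 4 in the others. Ints11 itself had no H3K27me3 in its window, and its H3K4me3 covered 6916 and 7080 bp (WT) and 9694 and 7797 bp (KO). The deleted part may leave its promoter intact, so this checks no label.

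H3K4me3 was present at all 7 genes in all 4 mice, a state shared by 66.8% of all genes. H3K27me3 divided the heptad. Gata2, Tal1 and Erg carried it in all 4 mice (21.2% of all genes did), and Lmo2, Lyl1, Runx1 and Fli1 had no H3K27me3 peak in any mouse, whereas 33.7% of all genes had one in at least 1 mouse. All 3 marked genes had fewer bases under H3K27me3 peaks in both KO than in both WT mice. The background for this was 71.2% of the 7375 genes with the mark, so the direction at the 3 genes is that of most genes. None of the heptad had more in both KO mice (background 0%).

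**Figure D1:**
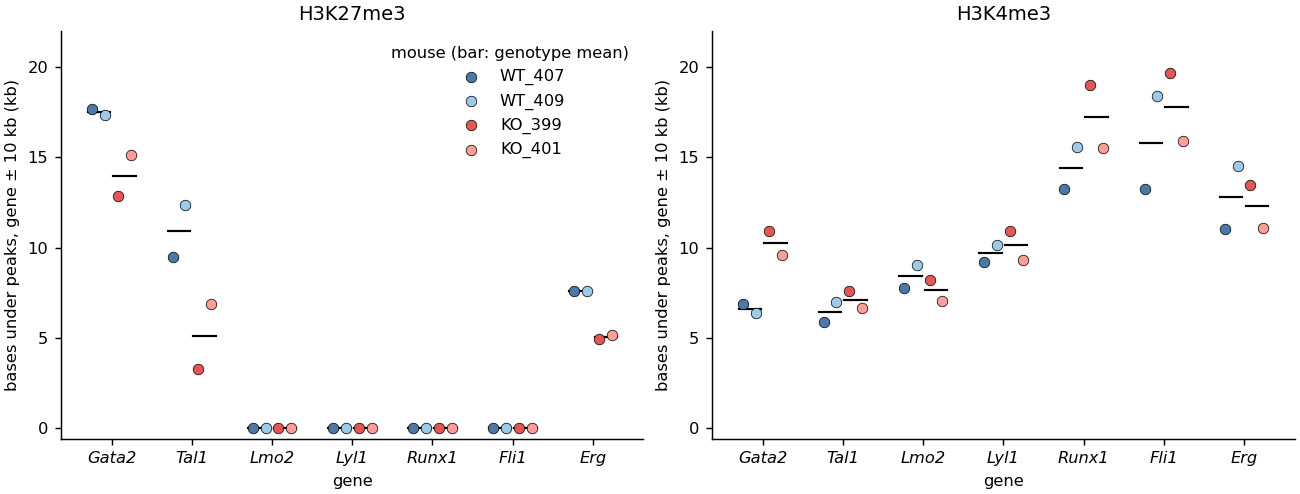
Bases under peaks (kb) from 10 kb below to 10 kb above each gene, for H3K27me3 (left) and H3K4me3 (right), with 1 point per mouse and a bar at the mean of each genotype. Gata2, Tal1 and Erg have H3K27me3, with both KO points below both WT points, and for H3K4me3 the genotypes separate at Gata2 alone.

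Gata2, the zinc-finger factor that stem cells need for their emergence and survival, had the most H3K27me3 of the heptad. The gene lies on chromosome 6 from 88193891 to 88207032 (mm10). Peaks covered 17677 bp (WT_407), 17378 bp (WT_409), 12840 bp (KO_399) and 15141 bp (KO_401). The 2 WT mice were nearly equal and both KO mice lay below them. The WT mean was 17528 ± 211 bp and the KO mean 13991 ± 1627 bp (SD, n = 2 each), a difference of -3537 bp. It was larger than the spread between mice and gave the smallest p that 6 labelings allow (two-sided exact permutation p = 0.33, n = 2 each). Adjusted over all genes with the mark by the Benjamini-Hochberg method, this exact p was 0.468. The difference was -702.5 bp within 2 kb of the gene, -339 bp with the lists cut to equal covered length and -8679.5 bp at a fold of at least 10, and in the last 2 of these settings the KO mice were no longer both below both WT mice. In these bulk samples, fewer cells with the mark and less mark per cell cannot be told apart.

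The main H3K27me3 domain of Gata2 covered both starts in each mouse, and upstream of it the mark was shorter in KO. From the first start, the widest peak ran from -1254 to 11041 bp in WT_407, from -2138 to 11398 bp in WT_409 and from -1281 to 11033 bp in KO_401. In KO_399 it ran from -1268 to 8374 bp, with a second peak from 9035 to 11027 bp. Upstream, between -6251 and -2282 bp, the mark covered 3970 bp (WT_407) and 3841 bp (WT_409), but it covered 697 bp (KO_399) and 2354 bp (KO_401). A further peak from -8132 to -7346 bp was listed in WT_407 alone. The widest peak stood above 98.1% to 98.8% of all H3K27me3 peaks of its own list by width.

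H3K4me3 at Gata2 went the other way. Peaks covered 6872 bp (WT_407), 6373 bp (WT_409), 10923 bp (KO_399) and 9598 bp (KO_401). Both KO mice were above both WT mice, with a WT mean of 6623 ± 353 bp and a KO mean of 10261 ± 937 bp (SD, n = 2 each, two-sided exact permutation p = 0.33, the smallest possible). After adjustment over all genes this exact p was 1. Gata2 was the only 1 of the 7 genes with more H3K4me3 in both KO mice, against a background of 21.7% of 15693 genes, and none had less in both (background 3.54%). The count rested on single mice. Without WT_409, 6 of the 7 genes had more in the KO mice (background 44% of 15612 genes). Without KO_401, 5 had (background 76.3% of 15673). Gata2 was among them each time. Fewer bases of H3K27me3 together with more of H3K4me3 in both KO mice was found at 11% of the 6210 genes that had both marks. KO_399, the highest at Gata2, was also the mouse with the most H3K4me3 background reads and with 11310 bp of H3K4me3 in the windows of the endothelial markers, against 5557 to 6246 bp in the others. Their part in the result was not tested, and without KO_399 the difference at Gata2 was 2976 bp, against 3638 bp with it.

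In KO_399 alone the added H3K4me3 joined peaks that were separate in WT. In WT_407 there was a peak at the first start (-344 to 798 bp) and a second around the second start (2122 to 6681 bp), and WT_409 had them at -244 to 987 bp and, in 2 pieces, at 2217 to 3980 bp and 4066 to 6252 bp. In KO_399 a single peak of 8203 bp ran from -434 to 7768 bp. KO_401 kept 2 larger peaks (-351 to 1212 bp and 2074 to 7612 bp) with a small one between them. The second start lies 4773 bp after the first, and 4 annotated starts of the antisense lncRNA Gm38708 also lie under this stretch, so a mark that has no strand cannot be assigned to either gene. A narrow H3K4me3 peak about 4 kb upstream had its summit at -4134 bp (WT_407), -4172 bp (WT_409), -4147 bp (KO_399) and -4170 bp (KO_401). It was the strongest H3K4me3 peak of the gene in every mouse, with 67, 66, 103 and 54 reads at the summit. A small site inside the gene, where peaks lay between 9022 and 9704 bp in WT, covered 614 and 598 bp there, and the enlarged site covered 2101 and 1513 bp in KO_399 and KO_401. Gata2 is known to have enhancers upstream of its start and in an intron; the table used here gives no exons, and whether these peaks are those elements was not tested.

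Tal1, the helix-loop-helix factor at the head of blood specification, lies on chromosome 4 from 115056426 to 115071755. H3K27me3 covered 9471 bp (WT_407), 12386 bp (WT_409), 3267 bp (KO_399) and 6889 bp (KO_401). The spread within each genotype was wide, but the groups did not overlap, with a WT mean of 10929 ± 2061 bp and a KO mean of 5078 ± 2561 bp (SD, n = 2 each, two-sided exact permutation p = 0.33). KO stood at 46.5% of WT, against 79.8% at Gata2 and 66.4% at Erg. The median of the 3 genes was 66.4%, and that of 7353 genes with the mark in WT was 55.0%. Counting peaks with a fold of at least 10 left only Erg with both KO mice below both WT mice (background 67.9%). With the lists cut to equal covered length the same single gene was left (background 30.7%), and the difference at Tal1 turned to 1633.5 bp.

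In WT_409 a single H3K27me3 domain of Tal1 ran from -4736 to 4921 bp around the first start. WT_407 had peaks from -4257 to -2892 bp and from -1852 to 4299 bp, and KO_401 from -4167 to -3371 bp and from -886 to 3307 bp. In KO_399 2 weak peaks remained at the starts (-662 to 1075 bp and 1153 to 1701 bp), with 22 and 23 reads at the summit where 20.5 were needed for a fold of 5. A separate H3K27me3 peak between 5818 and 7972 bp was present in all 4 mice and was shortest, at 980 bp, in KO_399.

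The H3K4me3 of Tal1 was sharply reproduced at 3 of its 4 sites. Its promoter peak was 3462 bp wide (WT_407), 3647 bp (WT_409), 3541 bp (KO_399) and 3504 bp (KO_401). A second strong peak inside the gene was 1713, 1853, 1909 and 1880 bp wide in the same order, and the third, upstream between -3963 and -3218 bp, was 699, 635, 705 and 672 bp. The total was 5874, 6979, 7574 and 6651 bp, and the genotypes overlapped (two-sided exact permutation p = 0.667, n = 2 each). Each of these 3 H3K4me3 sites had H3K27me3 over it in both WT mice and in KO_401. The other site, between 3403 and 4827 bp, had no peak in WT_407. That site covered 844 bp (WT_409), 1419 bp (KO_399) and 595 bp (KO_401), and lay under H3K27me3 in WT_409 alone. The start of the antisense lncRNA Gm33786 also lies under the promoter peak.

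Lyl1, the close relative of Tal1, had no H3K27me3 and a very wide H3K4me3 peak. Its span on chromosome 8 (84701423 to 84704716) is the shortest of the 7, and the peak exceeded it. The width was 7711 bp (WT_407), 8064 bp (WT_409), 8274 bp (KO_399) and 7650 bp (KO_401), wider than 99.7% to 99.8% of the peaks of each list. It ran from -659 to 7614 bp in KO_399 and so into the span of Nfix, which begins where Lyl1 ends. A smaller site upstream, at the end of Trmt1, covered 1486 to 2672 bp. The total of 9197, 10152, 10946 and 9311 bp did not separate the genotypes (two-sided exact permutation p = 0.667, n = 2 each).

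Erg, an ETS factor that maintains stem cells, showed the 2 marks at different starts. It lies on the minus strand of chromosome 16 from 95359169 to 95586600. At its first start, H3K27me3 formed a domain, and the peak over the start was 6444 bp wide (WT_407), 6070 bp (WT_409), 3957 bp (KO_399) and 3897 bp (KO_401). In total H3K27me3 covered 7600 bp (WT_407), 7615 bp (WT_409), 4947 bp (KO_399) and 5154 bp (KO_401). The totals agreed within genotypes most tightly of the 3 genes, but the WT totals summed different peaks. Besides the peak over the start, WT_407 had 1156 bp inside the gene, from 4624 to 5779 bp, and WT_409 had 1545 bp upstream. The WT mean was 7608 ± 10.6 bp and the KO mean 5051 ± 146 bp (SD, n = 2 each, two-sided exact permutation p = 0.33). The KO peaks over the start were shorter at both edges, from -529 to 3427 bp in KO_399 and from -580 to 3316 bp in KO_401. The WT peaks ran from -2794 to 3649 bp in WT_407 and from -1903 to 4166 bp in WT_409. A shorter peak followed upstream, from -3528 to -1984 bp in WT_409, -1777 to -788 bp in KO_399 and -1937 to -681 bp in KO_401. With that peak included, the mark reached -1777 and -1937 bp in the KO mice, close to the edge of the WT_409 peak over the start. It reached -2794 bp in WT_407 and -3528 bp in WT_409. The domain was not uniformly weak in KO: the summit had 83 reads in KO_401 and stood above 99.9% of its list by −log10 q, while KO_399 had 35 reads and stood above 69.8%.

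No H3K4me3 peak lay over the first start of Erg in any mouse. A small peak lay just inside the gene under the H3K27me3 domain, at 607 to 1259 bp, in WT_407 (603 bp), KO_399 (621 bp) and KO_401 (607 bp) but not in WT_409. It had 26, 25 and 19 reads at the summit, where a fold of 5 needed 15.2, 17.3 and 13.7. The second start, 56228 bp further in, carried neither mark. The third, 127245 bp after the first, was covered by the widest H3K4me3 peak of the heptad in 3 of 4 mice, with 7662 bp (WT_407), 9667 bp (WT_409), 9598 bp (KO_399) and 9240 bp (KO_401). In WT_407 the Lyl1 peak was wider. Over the whole Erg window, H3K4me3 covered 11057, 14520, 13476 and 11092 bp, with no order by genotype (two-sided exact permutation p = 1, n = 2 each).

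**Figure D2:**
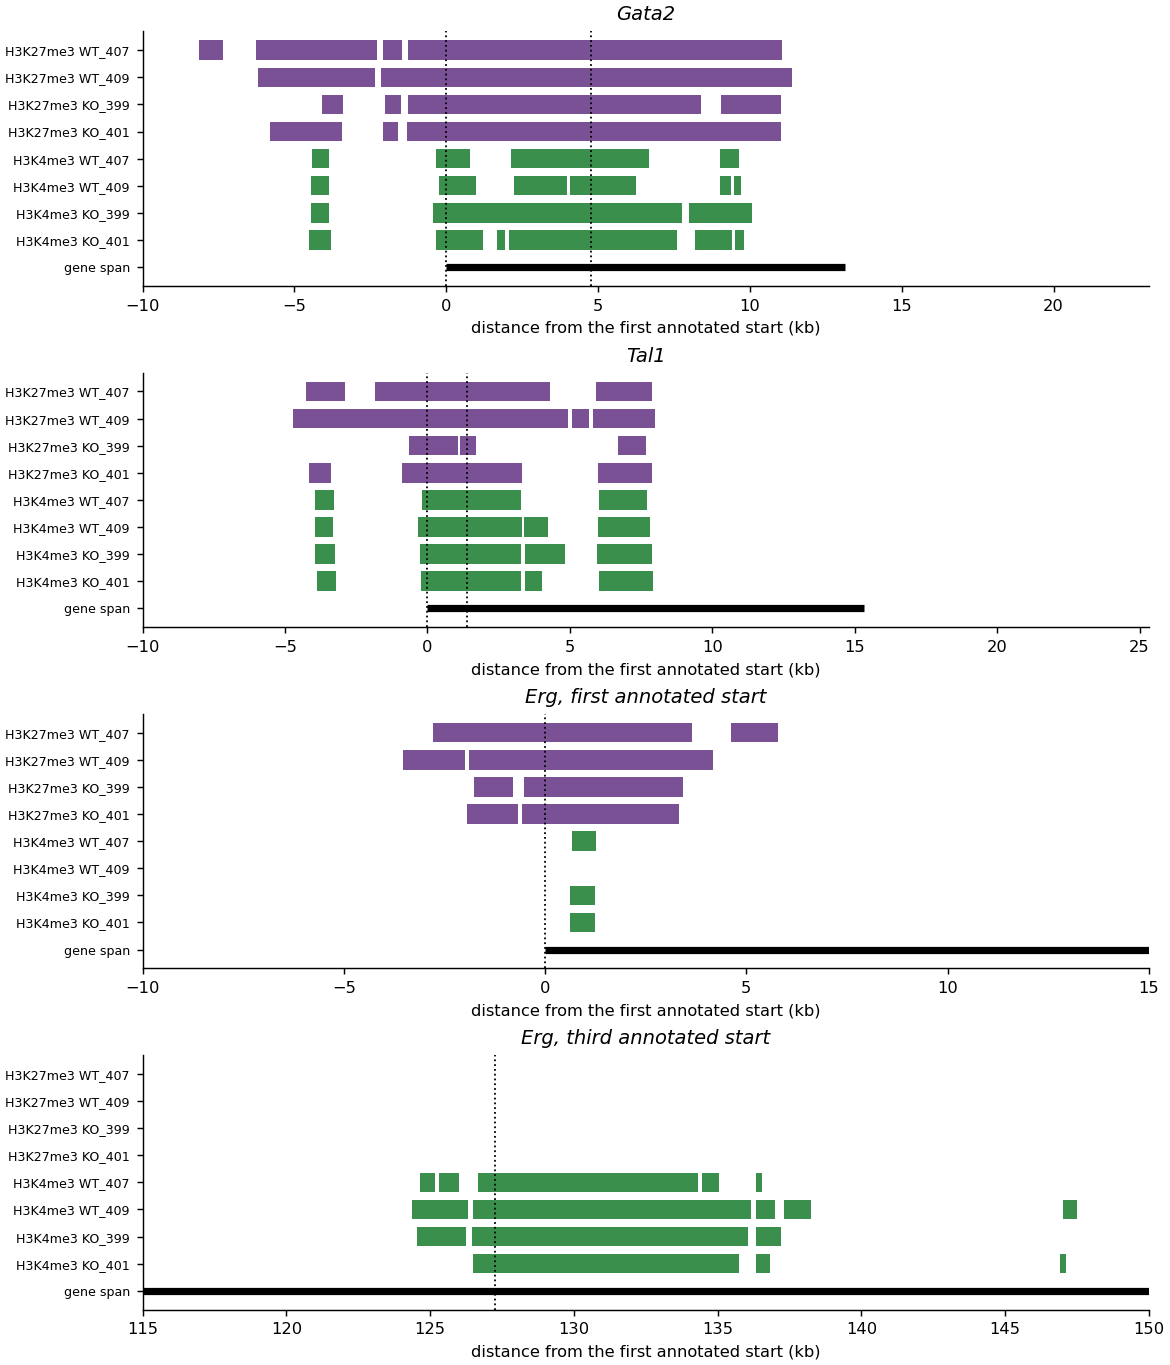
Peaks of both marks in each mouse at Gata2, Tal1 and 2 parts of Erg, by distance in kb from the first annotated start in the direction of transcription. Dotted lines are annotated starts and the black bar is the gene span. H3K27me3 covers fewer bases in KO at all 3 genes, the H3K4me3 peaks of Gata2 join in KO_399, and at Erg the marks lie at separate starts about 127 kb apart.

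The overlap of the marks was measured in bases covered by both in the same mouse. It shows both marks in the cells of that mouse, not on the same molecule. At Gata2, H3K4me3 lay wholly inside H3K27me3 in 3 mice (100% of its bases in WT_407, WT_409 and KO_401) and at 90.6% in KO_399. The shared length was 6872 bp (WT_407), 6373 bp (WT_409), 9894 bp (KO_399) and 9598 bp (KO_401), higher in both KO mice (two-sided exact permutation p = 0.33, n = 2 each). H3K27me3 alone covered 10805 and 11005 bp for the WT mice, but 2946 and 5543 bp for the KO mice. The Gata2 domain was thus shared over 38.9% and 36.7% of its H3K27me3 length in WT, and over 77.1% and 63.4% in KO.

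At Tal1 the shared length was 5874, 6979, 2860 and 5858 bp, and both KO mice lay below both WT mice, KO_401 by only 16 bp from WT_407 (two-sided exact permutation p = 0.33, n = 2 each). In WT all H3K4me3 bases of Tal1 were inside H3K27me3, against 37.8% in KO_399 and 88.1% in KO_401. At Erg it was 603, 0, 621 and 607 bp, and these values follow the presence of the single small peak. The overlap was thus higher in both KO mice at Gata2 and Erg (background 4.14% of 4970 genes) and lower at Tal1 (27%). Gata2 and Tal1 had overlap in all 4 mice, as did 12% of all genes. Single mice decided 2 of these sizes: without KO_399 the difference at Tal1 was -568.5 bp (-2067.5 bp with it), and at Erg it was 11 bp without WT_409 and 614 bp without WT_407 (312.5 bp with both). Tal1 no longer had less in both KO mice within 2 kb, at a fold of at least 10, with equal peak numbers or with equal covered length, where its difference turned to 1430 bp. Erg no longer had more at that fold, where its overlap difference was 0 bp, or with equal covered length (2 bp). At a fold of at least 10 the difference at Gata2 turned from 3123.5 to -2187.5 bp.

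Borders, taken as H3K4me3 peaks within 1 kb of an H3K27me3 peak of the same mouse without touching it, were rare. There was 1 in the 4 mice, at Tal1 in KO_401, where an H3K4me3 peak downstream of the promoter lay 124 bp from the shortened H3K27me3 peak. In WT_409 the matching H3K4me3 peak (3403 to 4246 bp) lay inside the domain. Lmo2, Lyl1, Runx1 and Fli1 had neither overlap nor border.

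**Figure D3:**
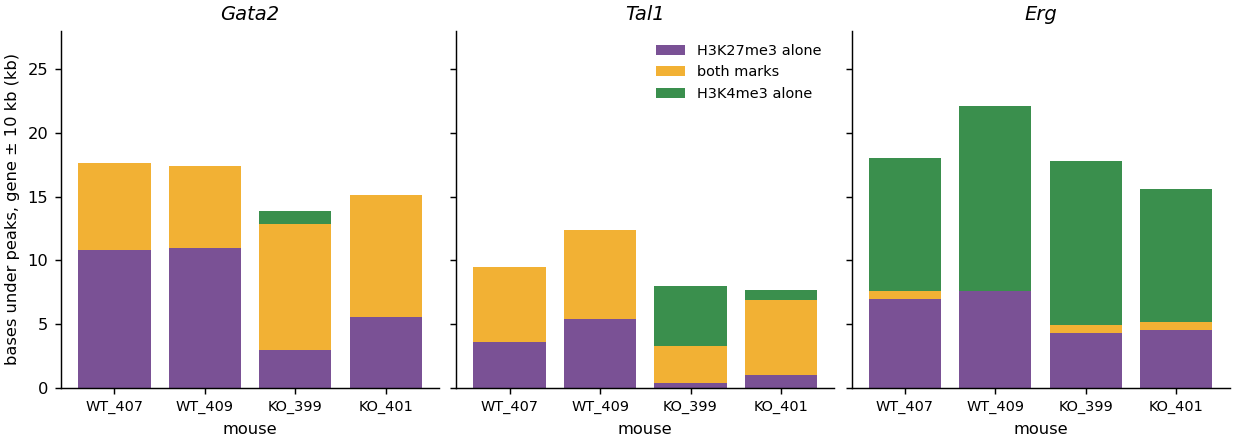
Bases (kb) covered by H3K27me3 alone, by both marks and by H3K4me3 alone at Gata2, Tal1 and Erg, stacked for each mouse. At Gata2 the part with H3K27me3 alone measures 10805 and 11005 bp for WT against 2946 and 5543 bp for KO, and at Erg the marks hardly share bases.

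Runx1 is the runt-domain factor through which blood stem cells arise from endothelium, and it is transcribed from a distal and a proximal promoter. Both carried H3K4me3 in all 4 mice. It lies on the minus strand of chromosome 16 from 92601466 to 92826074. The peak at the first start was 5227 bp wide (WT_407), 5735 bp (WT_409), 5623 bp (KO_399) and 5207 bp (KO_401). The second start lies 128745 bp further on, and its peak was 4097, 4172, 6857 and 4134 bp wide in the same order, the KO_399 value being one merged peak where the others had a neighbour close by. Another site in all 4 mice lay between the starts, at 109071 to 111206 bp.

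Weaker sites of Runx1 differed between mice. A site 23634 to 25332 bp after the first start, in the stretch where a haematopoietic enhancer of Runx1 is known, covered 1338 bp (WT_409), 1640 bp (KO_399) and 1523 bp (KO_401), with no peak listed for WT_407. Whether it is that element was not tested. Likewise the site at 6650 to 7368 bp was missing in WT_407 alone. A site at 204304 to 205496 bp was in both KO and neither WT mouse, with 23 and 17 reads at the summit in KO_399 and KO_401, where a fold of 5 needed 17.3 and 13.7. The total of Runx1 was 13256, 15563, 19008 and 15499 bp, with KO_401 inside the WT range (two-sided exact permutation p = 0.667, n = 2 each).

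Fli1, the ETS partner of Erg, lies on chromosome 9 from 32422204 to 32543432. Its strongest peak lay at the upper end of the span and was 6295 bp wide (WT_407), 6944 bp (WT_409), 7207 bp (KO_399) and 6181 bp (KO_401). By −log10 q it stood above 96.7% to 99.3% of all peaks of each list, the highest rank of the heptad for H3K4me3. Behind it, 3 more sites were in all 4 mice, counted from the lower end at 85154 to 89207 bp, 93775 to 95476 bp and 97131 to 100385 bp. With 12 sites Fli1 had the most of the 7 genes. WT_409 had 12 peaks, both KO mice 11 each and WT_407 had 6. A site at 109077 to 109554 bp was in both KO and neither WT mouse, with 478 and 279 bp. The total was 13228, 18423, 19702 and 15899 bp, and the WT values enclosed that of KO_401 (two-sided exact permutation p = 0.667, n = 2 each).

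Lmo2, the bridging protein, lies on chromosome 2 from 103957903 to 103981878. Its main H3K4me3 peak lay well inside the span, from 10253 to 16536 bp after the lower end in WT_407, and was 6284 bp wide there. Its width was 4917 bp (WT_409), 5752 bp (KO_399) and 5518 bp (KO_401) in the other mice. WT_409 differed from the other mice at both sides of it. It alone had peaks at the lower end of the span (-261 to 2103 bp, and 2207 to 2797 bp), and it alone lacked the 2 sites between 16606 and 18773 bp. Lmo2 is known to have a distal and a proximal promoter. The peaks at the lower end stood beside H3K4me3 at the B lymphoid and erythroid markers of WT_409, whose summed length at B lymphoid markers was 27371 bp against 8893 to 18918 bp in the other mice, and the part of such cells was not tested. A site at the lower edge of the window lay almost wholly outside it. The total within the window was 7780, 9025, 8227 and 7025 bp, with no separation (two-sided exact permutation p = 0.667, n = 2 each).

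**Figure D4:**
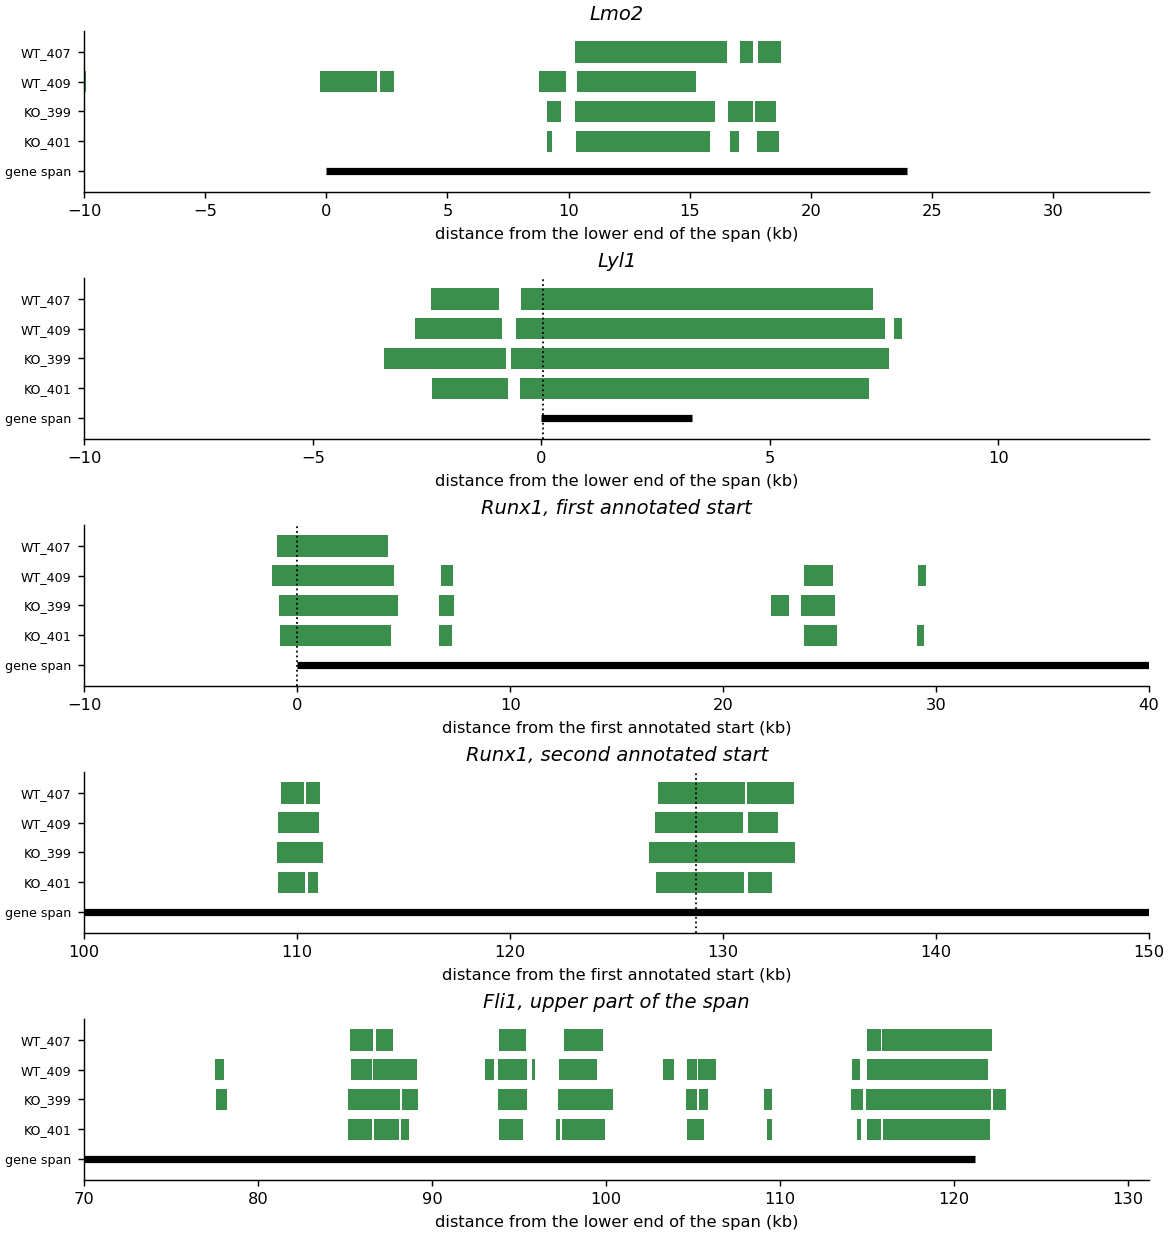
H3K4me3 peaks of each mouse at Lmo2, Lyl1, 2 parts of Runx1 and the upper part of Fli1, with distance in kb from the lower end of the span or from the first annotated start. Dotted lines are annotated starts. WT_409 alone has peaks at the lower end of Lmo2, and WT_407 has 6 peaks at Fli1 against 11 to 12 in the others.

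Merged over the mice, the heptad held 44 H3K4me3 sites. In all 4 mice there were 20 of them (45.5%), against 65.7% of 30534 sites in the genome. Sites were counted over their whole length. The 20 include the site at the lower edge of the Lmo2 window, where only the peaks of WT_409 and KO_399 reached into the window. In both KO and neither WT mouse there were 2 (background 2.04%), and in both WT and neither KO mouse none (1.01%). WT_409 alone had 7 (4.56%). A further 6 were in the 3 other mice but not in WT_407 (3.46%), at Tal1, Lmo2, Runx1 and Fli1, and no site was in 3 mice but not in KO_399. H3K27me3 had 8 sites at Gata2, Tal1 and Erg, of which 5 were in all 4 mice (background 35.9% of 12219 sites). None was in both WT and neither KO mouse (12.4%) and none the reverse (0.00818%). The 3 others were in a single WT mouse. So the shortfall in KO lay within shared sites and at these 3. A shared site can still lack a whole peak in 1 mouse. At Tal1, WT_407 had a peak from -4257 to -2892 bp, and KO_399 had none there.

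The wide H3K4me3 peaks set the heptad's scale. In every mouse the widest peak of Lmo2, Lyl1, Runx1, Fli1 and Erg was wider than 98.0% to 99.9% of its list. Tal1 stood at 91.6% to 94.4%. Gata2 ranged from 78.5% in WT_409 over 97.7% in WT_407 and 98.8% in KO_401 to 99.7% in KO_399. Ranks from lists of different lengths are given within each list and show no change between mice.

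Related factors were taken as a list of 30 paralogs, partners and cofactors. Of these 14 had H3K27me3 in some mouse, 9 with fewer bases in both KO than both WT mice (background 71.2%) and none with more. The largest differences were at Gata4 (-8063 bp), Meis1 (-6713 bp), Mecom (-3826 bp), Gata3 (-3468 bp) and Gata6 (-3213 bp), each with both KO below both WT mice. Among them Gata4 and Gata6 are factors of heart and gut, and Meis1 and Mecom are stem cell regulators. H3K4me3 was higher in both KO mice at 9 of 30 (background 21.7%) and lower at 1 (3.54%). The 5 largest differences were at Meis1 (3347 bp), Spi1 (3300 bp), Ikzf1 (1766 bp), Gfi1 (1703 bp) and Cbfa2t3 (1607 bp), but at Meis1 and Spi1 the genotypes overlapped. The difference at Gata2 (3638 bp) exceeded each of these. The median difference in H3K4me3 was 686 bp over the heptad, 415 bp over the related list and 149 bp over all genes with the mark, whose windows differ in length.

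Both marks overlapped in all 4 mice at 6 of the 30 related genes (background 12%): Gata3, Gata6, Lmo1, Meis1, Mecom and Zfpm1. Meis1 shared 13203 bp (WT_407), 11510 bp (WT_409), 15183 bp (KO_399) and 12138 bp (KO_401), more than Gata2 in each mouse. Zfpm1, the FOG1 cofactor of GATA factors, shared 2937 bp (WT_407), 3068 bp (WT_409), 2111 bp (KO_399) and 2728 bp (KO_401). Its KO values lay below its WT values, and only Gata3 of these 6 had more in both KO mice.

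**Figure D5:**
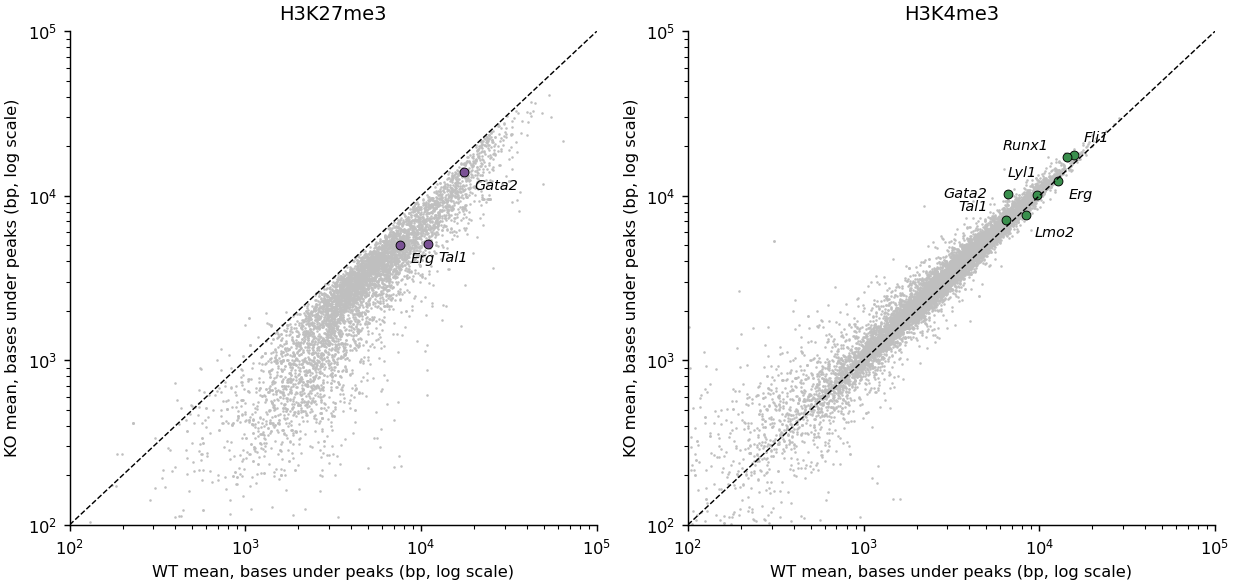
Mean bases under peaks in WT (x) and KO (y) for every gene with the mark in both genotypes, on log axes, with heptad genes labelled and the line of equal values dashed. Gata2, Tal1 and Erg lie below the line for H3K27me3 with most genes, and Gata2 lies the farthest of the heptad above it for H3K4me3, at 154.9% of WT. Genes with a mean below 100 bp are outside the axes.

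The genes most like each member were sought by the distance between the 8 shares of the window under peaks (both marks in 4 mice). For Gata2 they were Hoxa6, Zfp503 and Bmi1, at 9.85, 10.6 and 14.3 percentage points, and for Tal1 2310011J03Rik, Fst and Hspa1a, at 6.82, 7.79 and 8.89. For Erg they were Msrb3, Nrg2 and Selenoi (1.32 to 1.55). Lmo2 was nearest to Neurl3, Ccdc153 and Kmt5a (1.40 to 1.73), Lyl1 to Tubb5, Neurl4 and H3c6 (1.03 to 2.76), Runx1 to Tmem119, Mterf4 and Rrp1b (0.297 to 0.436) and Fli1 to Hvcn1, H1f6 and Myo1f (0.119 to 0.603).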

How the data were processed

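ChIP-seq of H3K27me3 and H3K4me3 was run in 4 mice, with 12 libraries in all including 4 of input, which are not analysed here. The labels' protocols give formaldehyde fixation. The submitters' processing notes name mm10 as the build and MACS2, Bowtie2, Trim Galore, FastQC, SAMtools and deepTools as tools; whether MACS2 used input as control, and versions, are not given there. Each of 8 files is a narrowPeak list of 1 library, with a deposited score, a deposited fold (ratio of pileup to background), deposited −log10 p-values and −log10 q-values, and a summit per peak. These are the authors' values, used here only for description, ranks and thresholds inside 1 list. Every fold exceeds 5 and peak numbers are skipped, so lower peaks had been removed, a step no label records.

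Bases under peaks were summed over each gene span with 10 kb on each side (RefSeq GRCm38.p6 positions), and the genotypes were compared by an exact two-sided permutation test (scipy 1.17.1) whose smallest p is 0.33. P-values were adjusted over all genes with the mark. Reads at a summit and the background solved the deposited fold and −log10 p within 0.001 for 100% of peaks. The summing was tested on simulated data. All 7 members are named. Of the related list, those with both marks shared in all 4 mice and the 5 largest differences per mark are named, and the 3 nearest genes per member. The members and lists were chosen with earlier results of these data known. Alternatives were windows of 2, 5 and 20 kb, a fold of at least 10, equal peak numbers or covered lengths, and each mouse left out. Nothing says the mice were from separate litters, so p-values measure only the spread between these samples.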

Additional observations from a re-analysis of the deposited data

How the results depend on the processing

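No paired analysis was possible because the WT and KO mice share no replicate number. H3K27me3 at Gata2, Tal1 and Erg kept a lower KO mean in 17 of 18 values under the other windows, thresholds and equalised lists and in 12 of 12 with 1 mouse left out. The exception was Tal1 when all libraries were cut to equal covered length (1633.5 bp, where its overlap was 1430 bp and its H3K4me3 difference -23.5 bp). That setting and a fold of at least 10 each left 1 of the 3 genes, Erg, lower in both KO mice. The background was 30.7% of 4848 genes with equal covered length and 67.9% of 4672 at that fold. Both settings leave fewer peaks. Gata2 kept more H3K4me3 in both KO mice under every alternative run, and its overlap turned to -2187.5 bp at a fold of at least 10.

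H3K4me3 members higher in both KO mice numbered 2 within 2 kb (background 22.5%) and 2 at a fold of at least 10 (23.8%). Those lower numbered 1 with the same covered length (9.24%). With 1 mouse left out, 1 to 6 were higher and 0 to 2 lower, when fewer mice have to agree. Higher were 6 without WT_409 (background 44%), 5 without KO_401 (76.3%), 1 without WT_407 (37.4%) and 1 without KO_399 (23.3%). Lower were 2 without WT_407 (15%), 1 without KO_399 (36.4%), 0 without WT_409 (11.1%) and 0 without KO_401 (4.29%). Members with less overlap in both KO mice numbered 0 within 2 kb (background 25.7%) and at a fold of at least 10 (36.9%). They also numbered 0 with equal peak numbers (20.7%) and with equal covered length (10.8%). Those with more numbered 0 at that fold (0.718%) and 1 with the same covered length (14%). With 1 mouse left out, 1 had less overlap (background 37.5% to 50.2%) and 2 had more (9.09% to 30.4%). H3K4me3 differences (KO minus WT) reversed at a fold of at least 10 for Lmo2 (6.5 bp), Lyl1 (-45 bp) and Runx1 (-519.5 bp), and with 1 mouse left out for Lyl1 (from -363.5 bp without KO_399 to 1271.5 bp without KO_401, and -23.5 bp without WT_407), Fli1 (from -622.5 bp without WT_407 to 4572.5 bp without WT_409) and Erg (from -2236 bp without WT_407 to 1227 bp without WT_409, and 687.5 bp without KO_401). The cause was not tested. Within 20 kb Fli1 also had H3K27me3 (-910.5 bp). Borders numbered 1 within 500 bp and 2 within 2 kb. Runs of at least 100 bp left the overlap counts at 1 lower (background 26.9%) and 2 higher (4.18%). At the background of each library a fold of 5 needed 19.5 to 22.4 reads for H3K27me3 and 13.7 to 17.3 for H3K4me3, and whether depth decided which weak sites were listed was not tested.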
